A study of Caenorhabditis elegans with 2 samples.

Results

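Proteasome subunit genes of the nematode Caenorhabditis elegans were examined for binding of ZTF-18, a zinc finger protein. They were taken as every protein-coding gene whose symbol begins with pas-, pbs-, rpn- or rpt- followed by a digit, which gave 33 of the 19973 protein-coding genes on the nuclear chromosomes of the WBcel235 (ce11) annotation. The measurements came from 2 chromatin immunoprecipitation libraries, labelled biological replicates 1 and 2, of whole young adult hermaphrodites of strain OP496. The strain is a stable transgenic line that makes ZTF-18 fused at its C terminus to GFP and FLAG. The worms were collected 64 hours after synchronization as starved L1 larvae, and anti-GFP antibody was used to precipitate the fusion protein with its sonicated DNA. There was 1 group and no untreated or untagged group, so no conditions were compared. Whole animals were used, so binding in a few cells cannot be told apart from weak binding in many. A gene was counted as bound when the summit of a peak in the thresholded list of 2465 peaks fell in its promoter window, which began 1000 bp before the annotated 5′ end and stopped 200 bp after it. That list was made from both replicates by an irreproducible discovery rate filter, which sets how many peaks to keep from how well the replicates' ranks match. It equals the 2465 strongest entries of the pooled list, so a kept peak can have unlike ranks in the replicates. Both replicates feed it, so their support for a bound call is not independent of that call.

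The 26S proteasome is the large protease that degrades proteins marked with ubiquitin. Its barrel-shaped core particle is built from rings of alpha subunits (pas genes), which gate the entrance, and beta subunits (pbs genes), some of which cut the protein chain. The regulatory particle caps the core. Its base holds a ring of ATPases (rpt genes) that unfold the substrate, and non-ATPase subunits (rpn genes), of which some bind ubiquitin. Its lid (the other rpn genes) removes the ubiquitin chain. These subunit roles were worked out mainly in yeast and mammals.

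ZTF-18 summits in the thresholded list lay at 9 of the 33 genes (27.3%), against 8.18% of all protein-coding genes. The 9 were the core genes pas-1, pas-3 and pbs-7 and the regulatory genes rpn-1, rpn-2, rpn-3, rpn-8, rpn-9 and rpn-11. One of them, rpn-2, stood far above the rest, with a pooled peak signal of 2546, followed by rpn-9 at 265.6 and the other 7 between 95.7 and 139.0. Signals are the authors' own per-peak values on an unstated scale, and the pooled value has no error of its own. Over the thresholded list it ran from 93.6 to 11118, with a median of 154.8, so 7 of the 9 bound genes were at or below the median.

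The strongest member differed from the other bound members in a word of 6 bases near its summit. The DNA from 100 bp before to 100 bp after the pooled summit is shown for rpn-2, rpn-9 and usp-14. Among proteasome partners usp-14 was the strongest gene. The sequences were read from the RefSeq copy of WBcel235 on the strand of each gene. Capitals mark GCGCCA and its reverse complement TGGCGC, the word of 6 bases most enriched within 50 bp of the 60 strongest summits on chromosomes II, IV, V and X, none of which is a member's peak. The next word, GCGTCA, was present at 38 of these 60 summits, against 42 for GCGCCA, and was not looked up over all members. The rpn-2 region below holds its reverse complement, TGACGC, left in lower case. The rpn-9 and usp-14 regions below do not hold this next word on either strand. The rpn-2 region is chrIII:6198716-6198916 (plus strand), the rpn-9 region is chrII:11239048-11239248 (minus strand) and the usp-14 region is chrII:14488714-14488914 (minus strand), and none of them overlaps an annotated exon.
rpn-2: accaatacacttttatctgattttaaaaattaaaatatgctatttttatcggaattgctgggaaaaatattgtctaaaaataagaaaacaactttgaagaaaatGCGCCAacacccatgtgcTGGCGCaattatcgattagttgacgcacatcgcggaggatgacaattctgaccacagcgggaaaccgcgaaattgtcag
rpn-9: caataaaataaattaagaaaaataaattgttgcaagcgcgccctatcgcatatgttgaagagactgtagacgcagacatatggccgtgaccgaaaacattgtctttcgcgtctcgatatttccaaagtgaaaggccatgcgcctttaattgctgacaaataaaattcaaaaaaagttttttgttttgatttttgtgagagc
usp-14: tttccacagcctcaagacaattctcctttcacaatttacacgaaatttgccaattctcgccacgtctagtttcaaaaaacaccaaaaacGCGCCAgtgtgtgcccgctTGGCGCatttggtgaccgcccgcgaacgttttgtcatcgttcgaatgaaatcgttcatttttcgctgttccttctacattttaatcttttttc
At rpn-2 the word occurred in an inverted pair, GCGCCAacacccatgtgcTGGCGC, that began 4 bases after the summit and had 12 bases between its arms. At usp-14, which encodes a deubiquitinase that acts at the proteasome, the pair GCGCCAgtgtgtgcccgctTGGCGC had its first base at position -11 from the summit and 13 bases between its arms. The rpn-9 region held no copy, and neither did the region of the same length at cdc-48.1, the partner gene with the next strongest peak.

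Among the bound members, rpn-2 was the sole gene with GCGCCA on either strand within 100 bp of its summit, so the word was present at 1 of 9 member peaks. It was present at 19.5% of the 2449 nuclear thresholded peaks in a region of the same 201 bp, at 79.8% of those ranked 1 to 100, and at 12.2% of those ranked after 1000. Of the 9 member peaks, 7 ranked after 1000. The word was chosen from peaks that are partly among those ranked 1 to 100, so these shares by rank are a description. Of the 40 peaks ranked 1 to 100 on chromosomes I and III, which were not used to choose it, 82.5% held it. In regions of the same length placed 500 bp to the left it was present at 3.80%. An inverted pair with at most 20 bases between the arms was present at 1.88% of nuclear peaks, at 10.6% of those ranked 1 to 100, and in 0.335% of the promoter windows of all protein-coding genes. The longer word GCGCCAGC, which contains the first, was found within 100 bp of the rpn-2 summit and in no other member's promoter window, against 1.55% of all promoter windows and 9.42% of those of all bound genes. Over whole promoter windows of 1201 bp, GCGCCA occurred at 9 of 33 members (27.3%) and at 18.4% of all genes. It occurred at 2 of the 9 bound members and 7 of the 24 unbound ones, and at 37.3% of all bound genes. A match describes the letters in these windows and is not shown to be a binding site.

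The base of the regulatory particle held the strongest member. RPN-2 is a large scaffold of the base and, in yeast, holds the ubiquitin receptor RPN-13. The peak at rpn-2 (WBGene00004459, chromosome III, 6198287 to 6199376) had a signal of 1576 in replicate 1 and 1010.2 in replicate 2. It ranked 70 of 26104 peaks in replicate 1, 80 of 27612 in replicate 2 and 72 in the pooled list, and both replicates thus placed it in nearly the same position. Its summit lay 368 bp upstream of rpn-2 in intergenic sequence and 402 bp upstream of the divergent gene C23G10.7, and the summits of the replicates were 2 bp apart. The other bound base gene, rpn-1, encodes the second large scaffold and a docking site for ubiquitin-like proteins. Its signal was 67.1 in replicate 1 and 38.4 in replicate 2, at ranks 2021 and 3139. The summit lay 382 bp upstream, within an annotated exon of the gene T22D1.19, and 388 bp upstream of ribo-1. The replicates were less alike here, with summits 234 bp apart. The ubiquitin receptor genes rpn-10 and rpn-13 were not bound. For rpn-13 the strongest summit ranked 2639 in the pooled list, just outside the thresholded list, with signals of 43.5 and 45.5 in replicates 1 and 2, and for rpn-10 it ranked 8241.

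**Figure D1:**
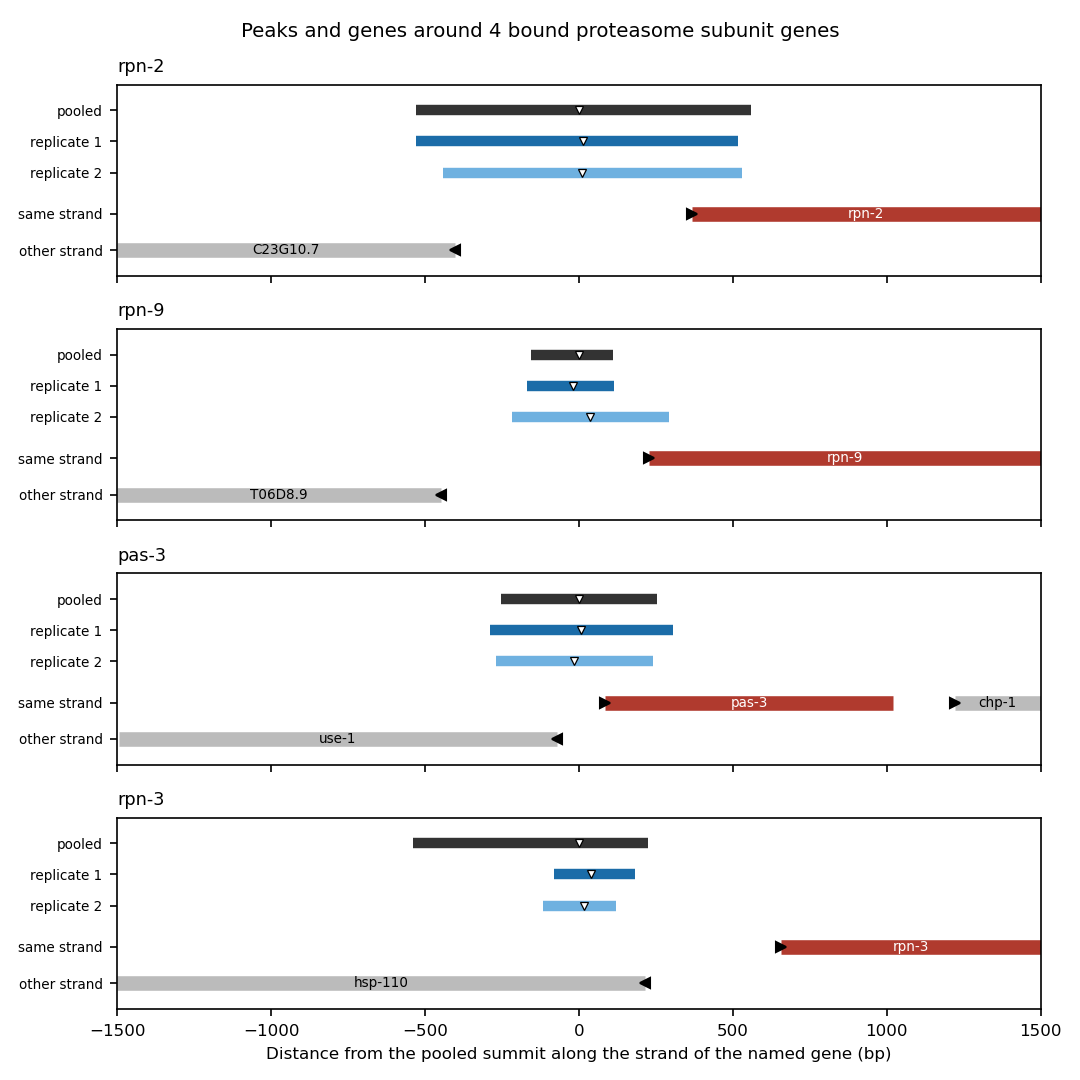
Peak intervals in the pooled and replicate lists (bars, with the summit as a triangle) and annotated genes at rpn-2, rpn-9, pas-3 and rpn-3. The x axis is the distance in bp from the pooled summit along the strand of the named gene, and arrowheads mark 5′ ends. The summits at rpn-2, rpn-9 and pas-3 lie between divergent genes, and the one at rpn-3 lies inside hsp-110.

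Of the 6 ATPase genes rpt-1 to rpt-6, 0 had a thresholded summit in the window, a count too small to set apart from the 8.18% of all genes. The strongest was rpt-3, at a pooled signal of 88.2 and rank 2682, followed by rpt-5 at 56.4 rpt-2 at 52.0, rpt-1 at 38.9 and rpt-6 at 28.65. In replicate 2 rpt-3 had a signal of 57.9 and ranked 1672, within the 2465 strongest peaks of that replicate, and in replicate 1 it had 51.4 and ranked 3002. The other end of the range was rpt-4, with no summit in its window in the pooled list or in either replicate list, alone among the 33 genes. The nearest thresholded summit to rpt-4 lay 21367 bp downstream of its 5′ end.

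The lid had the most bound genes of the subcomplexes, 4 of 9, while the base genes that are not ATPases had the higher share, 2 of 4, against 8.18% of all genes. Without replicate 1, that is among the strongest peaks of replicate 2, the lid count was 2 of 9, against 7.82% of all genes. It was level with 2 of 7 alpha genes and 2 of 4 of those base genes, there rpn-2 and rpn-13. Among the strongest peaks of both replicates the lid had 2 of 9 and those base genes 1 of 4, against 6.20%. These counts are too small to rank the subcomplexes. RPN-9, a structural lid subunit, had the second strongest member peak (WBGene00004465, chromosome II, 11239037 to 11239304), with a signal of 187.4 at rank 494 in replicate 1 and 93.7 at rank 816 in replicate 2. The summit lay 229 bp upstream of rpn-9 and 449 bp upstream of the divergent gene T06D8.9. The genes rpn-8 and rpn-11 encode the paired subunits of which RPN-11 is the enzyme that cuts ubiquitin chains from the substrate. At rpn-8 the signals were 71.2 (rank 1845) in replicate 1 and 70.9 (rank 1260) in replicate 2, and the strongest summits of the replicates were 167 bp apart. The pooled summit lay 216 bp upstream of rpn-8 and 329 bp upstream of the divergent gene mrps-6. At rpn-11 the signals were 75.0 (rank 1735) and 29.7 (rank 4905), and the summit lay 33 bp downstream of the 5′ end in the annotated 5′ UTR. At rpn-3, a lid subunit gene, they were 110.1 (rank 973) and 37.3 (rank 3279). The rpn-3 summit lay 658 bp upstream of that gene within the coding sequence of the neighbouring chaperone gene hsp-110, 214 bp downstream of the hsp-110 5′ end, and so counted for rpn-3 alone. Of the 5 unbound lid genes, rpn-5 and rpn-7 had pooled ranks of 3405 and 4790. The gene rpn-6.1, whose raised expression is known to increase proteasome activity in long-lived worms, had no summit in replicate 1 and ranked 18355 in replicate 2 with a signal of 14.5. Its paralog rpn-6.2 had a pooled rank of 13931, and rpn-12 of 12752.

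In the core particle 3 of 14 genes were bound (21.4%), against 6 of 19 in the regulatory particle (31.6%). The core share minus the regulatory share was -10.2 percentage points, and this turned to 0.8 with a window of 2000 bp upstream and was -1.5 for peaks overlapped in both replicates. No test of the difference was made because genes are not replicates. Among alpha subunit genes pas-3 and pas-1 were bound. For pas-3 the signals were 64.6 in replicate 1 and 73.2 in replicate 2, and its summit lay 84 bp upstream in the 155 bp between pas-3 and the divergent gene use-1, whose 5′ end was nearer, at 72 bp. For pas-1 the signals were 50.9 and 47.5. Its summit was 809 bp upstream, beyond the neighbouring gene rpoa-12, which lies on the same strand with a gap of 106 bp, and 123 bp upstream of rpoa-12. The 4 alpha genes pas-4, pas-5, pas-6 and pas-7 had pooled ranks between 2739 and 3786, and pas-2 had 9495. Among beta subunit genes pbs-7 was bound, at 69.6 and 59.7 in replicates 1 and 2. Its summit lay 93 bp upstream of pbs-7 and 209 bp upstream of the divergent gene F39H11.1. The 3 beta genes whose yeast and mammalian counterparts carry the catalytic sites, pbs-1, pbs-2 and pbs-5, were not bound, with pooled signals of 56.1, 34.3 and 56.4. Those of the non-catalytic genes pbs-4 and pbs-6 were 35.5 and 57.0. With 3 catalytic genes, a count of 0 is too small to set apart from the 8.18% of all genes. With the 2000 bp window pbs-1 and pbs-5 were bound and pbs-2 was not. The unbound member closest to the threshold was pbs-3, at a pooled signal of 89.25 and rank 2635, with 51.8 in replicate 1 and 34.65 in replicate 2.

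**Figure D2:**
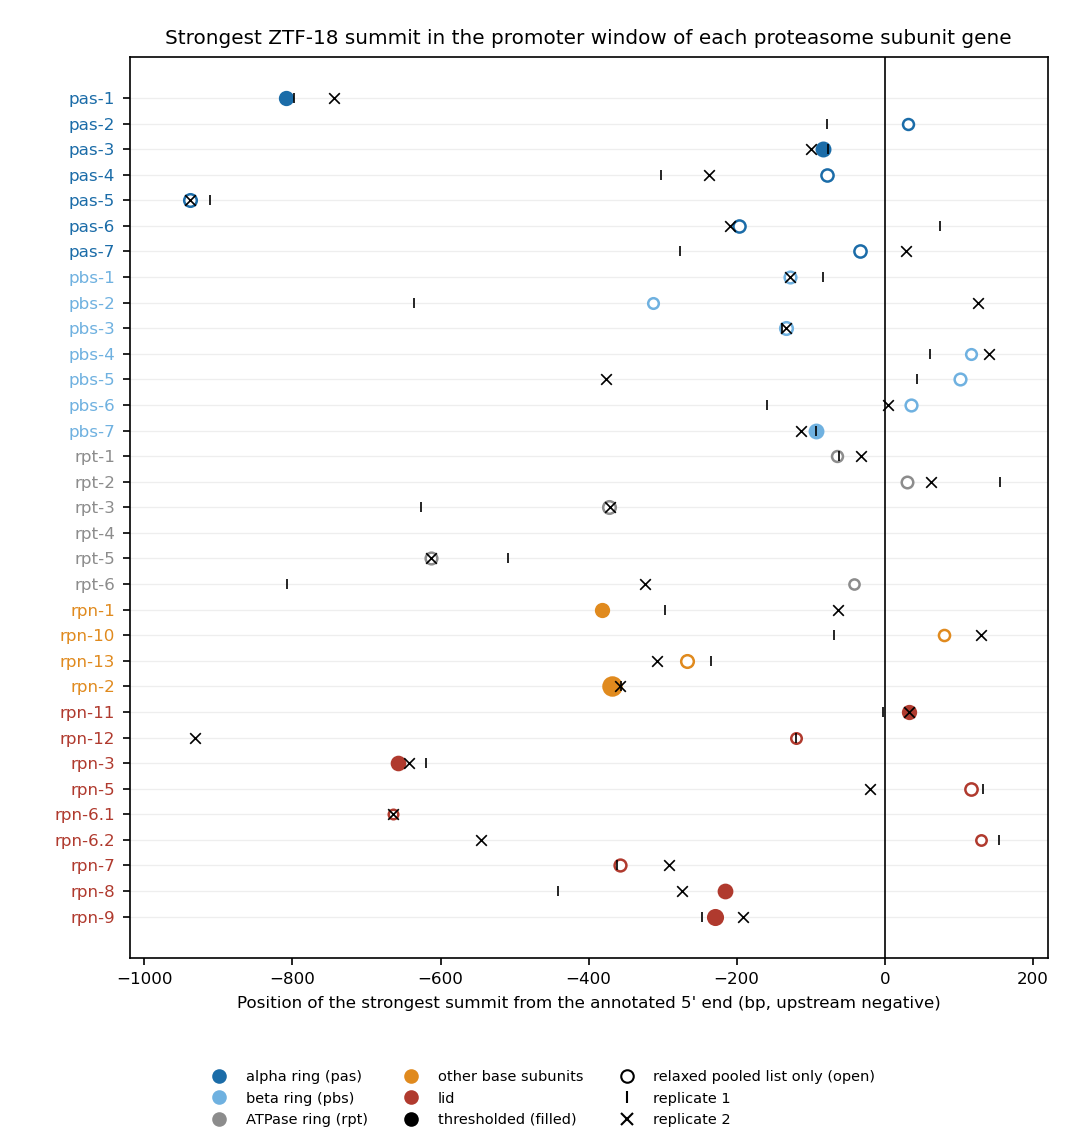
Position in bp of the strongest summit in the promoter window of each of the 33 genes, from the annotated 5′ end (upstream negative). Circles are pooled summits, filled where thresholded and sized by signal, bars are replicate 1 and crosses replicate 2, and colours mark the subcomplex. Of the pooled summits, 18 lie from 0 to 400 bp upstream, 5 farther upstream and 9 downstream, and rpt-4 has none.

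Each replicate was also taken alone, using its 2465 strongest peaks. By this measure 8 of 33 members were bound in replicate 1, against 7.85% of all genes, and 8 in replicate 2, against 7.82%. There were 5 members in both sets (15.2%, against 6.20% of all genes), namely rpn-2, rpn-9, rpn-8, pas-3 and pbs-7. Of the other bound members, rpn-1, rpn-3 and rpn-11 were among the strongest peaks in replicate 1 alone and pas-1 in replicate 2 alone, and the unbound rpt-3 and rpn-13 were among them in replicate 2. The count was the same in each replicate, and which weaker members it held differed. At the 9 bound members the strongest summits of the replicates were a median of 36.0 bp apart, with 7 within 100 bp. At the 21 unbound members with a summit in both replicates the median was 153 bp, with 9 within 100 bp. The bound list was made from the same replicates, and a window can hold several summits, so the strongest can be different peaks. These distances are therefore a description and lend no support to the bound calls. With a single value per replicate and no scale shared between them, no test of a difference between replicates was made.

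**Figure D3:**
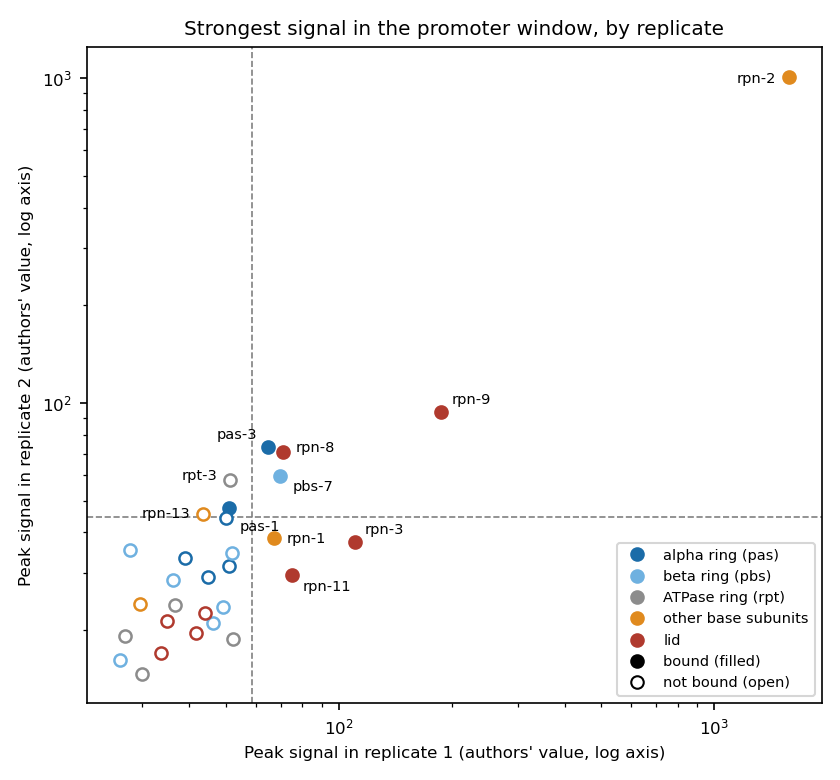
Strongest peak signal in the promoter window in replicate 1 (x) and replicate 2 (y), both on log axes, for the 30 genes with a summit in both lists. Filled points are bound, colours mark the subcomplex, and dashed lines mark the lowest signal among the 2465 strongest peaks of each replicate (58.8 and 44.6). The gene rpn-2 lies far from the rest, and 5 bound genes lie above both lines.

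Below the threshold the members were still seldom without a summit. In the relaxed pooled list of 30000 peaks and background entries, 32 of 33 members (97.0%) had a summit in the window, against 39.0% of all protein-coding genes. The strongest summit ranked from 2466 to 5000 at 9 members (27.3%, against 6.17% of all genes) and after 5000 and up to 15000 at 12 members (36.4%, against 12.9%). With genes lacking a summit counted as 0, the median signal over members was 69.65 in the pooled list, 46.3 in replicate 1 and 29.1 in replicate 2, and over all genes it was 0 in each. These lists include background by design, so a summit in them is not a bound call, and genes are listed at 0 where no entry was made. The members close to the threshold were on both of its sides, with rpn-11, pas-1 and rpn-1 at ranks 2351, 2340 and 2396 inside it and pbs-3, rpn-13, rpt-3 and pas-5 at ranks 2635, 2639, 2682 and 2739 outside it.

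**Figure D4:**
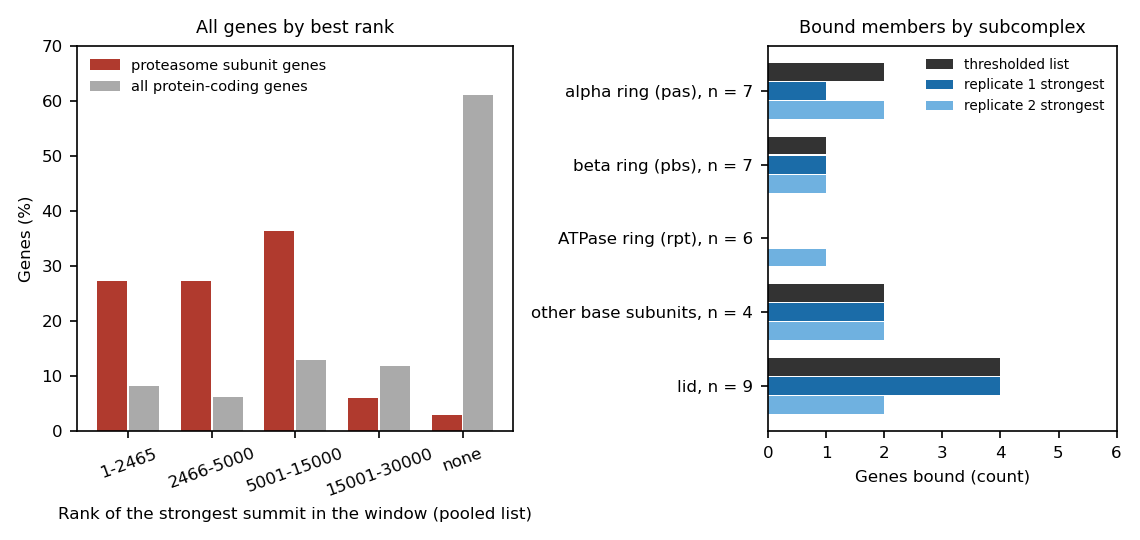
Left, percentage of genes by the pooled rank of the strongest summit in the promoter window, for the 33 proteasome subunit genes and all protein-coding genes. Right, number of bound genes of each subcomplex in the thresholded list and among the strongest peaks of each replicate. Of the members 3.03% have no summit against 61.0% of all genes, and the lid has 4 bound genes in the thresholded list and 2 in replicate 2.

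All 33 genes lie on autosomes, of which 8.60% of genes were bound, and 27 lie in the central 50% of their chromosome by length, where 10.3% were. All 9 bound members were among those 27. The bound members had 9 peaks, 1 each, and 7 of these also counted for a neighbouring gene (77.8%, against 52.3% of all bound genes). The member held the nearest 5′ end at 6 of 9 peaks, against 71.5% of all bound genes. The nearest 5′ end belonged to use-1 at the pas-3 peak, rpoa-12 at the pas-1 peak and hsp-110 at the rpn-3 peak. The upstream neighbour lay on the opposite strand at 23 of 33 members and at 7 of the 9 bound ones. The share over all genes was not computed, so these counts are not shown to be a trait of the members. The median bound summit lay 229 bp upstream of the member, and 250.0 bp upstream over all bound genes. No bound member had a summit within 150 bp of a tRNA gene. With 9 bound members, this is too few to set apart from the 5.08% of all bound genes.

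Of 23 genes that work with the proteasome and matched the annotation, among ubiquitin, ubiquitin-handling and proteasome-associated factors, 5 were bound (21.7%, against the 8.18% of all genes). They were led by usp-14, whose signal was 755 in replicate 1 and 498 in replicate 2 at ranks 179 and 193. Next came cdc-48.1, which encodes the AAA ATPase that extracts ubiquitinated proteins, with 334 and 220 at ranks 306 and 311. The others were ufd-2, a ubiquitin chain elongation factor gene, ubh-4, which encodes a deubiquitinase associated with the proteasome, and ubql-1, a ubiquilin gene. All but ubql-1 were among the strongest peaks of both replicates. The gene skn-1, whose product is known to raise proteasome gene expression when the proteasome is inhibited, was not bound, with a strongest pooled rank of 4873. The genes ddi-1 and png-1, whose products activate that factor, had no summit in their windows. In the pooled list the same held for 61.0% of all protein-coding genes.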

How the data were processed

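Peaks were analysed from 2 replicate libraries of 1 group, placed by the replicate number in the labels. The authors deposited narrowPeak lists on ce10 and ce11, and the ce11 lists were used. Per the deposited file lists, the relaxed lists came from the alignments of each replicate or of both together and a control alignment, and the thresholded list was derived from them. Which peak caller, aligner and threshold were used is not given in the sources used here. Each peak's signal is the authors' deposited value, made with a control alignment that was not analysed here, and read depth is unknown. The deposited −log10 q value was read and not used for ranking, since it is constant over the thresholded list. Of the thresholded intervals, 1433 are 510 bp wide.

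Genes came from the WBcel235 annotation, release 115, on chromosomes I to V and X. Because a leader RNA is spliced onto many worm transcripts, transcription can start upstream of the annotated 5′ end. One summit could count for several genes. No set test was run. The members, subcomplexes and partner list were chosen with earlier results of these data known, and 23 of 24 partner names matched. Every bound member is named, with the strongest of the unbound, and other genes that share a member's peak. Further unbound members, the usp-14 sequence and the neighbours with the nearest 5′ end were added after their values were seen, as were the words, their 60 source peaks, the pairing limit and the rank ranges. Of the partner list only bound genes were to be named, and the unbound skn-1, ddi-1 and png-1 were added. Words were ranked by the number of source regions that held them within 50 bp of the summit less the number that held them 300 bp away, on both strands. Alternatives are given in the closing section. The gene assignment was tested on simulated data and placed 200 of 200 summits as planted among 19973 genes. Tools were numpy 2.4.6, matplotlib 3.10.9 and pandas 2.3.3, run in Python 3.11.15.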

Additional observations from a re-analysis of the deposited data

How the results depend on the processing

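The bound count of 9 was within 1.5 times under a 500 bp upstream window, every transcript 5′ end, the nearest 5′ end only, and peak intervals in place of summits, which gave 7, 10, 6 and 12, while the share of all genes was 6.57%, 8.75%, 6.02% and 9.03%. It was 8 without replicate 1 and 8 without replicate 2, with core counts of 2 to 3 and regulatory counts of 5 to 6. A 2000 bp window raised the total to 14 and the core count to 6, adding pas-5, pbs-1, pbs-5, rpn-10 and rpn-12, while all genes rose to 10.6%. With the nearest 5′ end only the core count was 1. The upper 1232 peaks by signal held 2 members, rpn-2 and rpn-9, so 0 core and 2 regulatory genes, against 4.28% of all genes. Peaks overlapped in both replicates held 5 members, 3 of them regulatory, against 6.22%. The relaxed list held 32, with 14 core and 18 regulatory genes. The core share minus the regulatory share, -10.2 percentage points, turned to 0.8 with the 2000 bp window and 5.3 in the relaxed list, and was -1.5 for peaks overlapped in both replicates and -19.2 with the nearest 5′ end only. It ranged from -17.3 to -4.9 when a replicate was left out. The cause was not tested. The genes rpn-2 and rpn-9 were bound in all 10 alternatives, pbs-7 and rpn-8 in 9, pas-3 in 8, rpn-1 and rpn-11 in 7, and pas-1 and rpn-3 in 5. The pas-1 and rpn-3 calls were lost with the 500 bp window and with the nearest 5′ end only. Leaving out replicate 1 lost rpn-1, rpn-3 and rpn-11 and added rpt-3 and rpn-13, and leaving out replicate 2 lost pas-1. No paired analysis was possible because there was 1 group. With 2 replicates and unknown depth, a member outside the thresholded list is not shown to lack ZTF-18.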
